A study of Saccharomyces cerevisiae with 12 samples.

Results

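The hypoxia response of each gene, its log2 change of hypoxic over aerobic cells, was compared between set4Δ and wild-type budding yeast. The quantity described is the response of set4Δ cells minus the response of wild-type cells, which is the genotype by oxygen interaction, and the 2 single responses are given only beside it. It was formed for every gene with values in the response tables of both genotypes and a mean of at least 10 in at least 1 group, which held for 6025 of the 6066 genes in either table. A positive difference means a larger rise, or a smaller fall, in set4Δ cells.

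The set4Δ cells, in which SET4 is replaced by the HIS3MX cassette, were set against wild-type cells, both in the BY4741 background. Cells grew in YPD at 30 °C to mid-log phase. Hypoxic cultures were kept for 18 h in anaerobe pouches, and the aerobic cultures grew in air. There were 3 libraries each of hypoxic set4Δ, aerobic set4Δ, hypoxic wild-type and aerobic wild-type cells, made from total RNA after removal of ribosomal RNA with a stranded kit. Each genotype is represented by a single strain, so a change that came with the strain and not with the deletion cannot be told apart from it.

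Set4 is a SET-domain protein of the same branch as Set3, and its gene is weakly expressed in air and induced when oxygen is scarce. Budding yeast needs oxygen to make sterols, unsaturated fatty acids and heme. When it runs short, cells turn on the sterol uptake genes and the seripauperins (PAU genes), a large family of small wall-associated proteins, and replace the wall mannoproteins of aerobic growth, such as those of the CWP genes, by those of the DAN and TIR genes. The zinc-cluster activators Upc2 and Ecm22 bind sterol-response elements and drive many of these genes, while Ino2 and Ino4 drive genes of phospholipid synthesis.

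The 12 libraries held 18786176 to 27572406 reads in genes, as recovered from the deposited values, and the 10 most abundant genes took 29.8 to 32.9% of them in hypoxia and 22.8 to 24.6% in air. Values are normalized counts, scaled by the authors within each table of 6 libraries, so that a response is formed within 1 table. Levels of the 2 genotypes come from tables scaled separately. Bringing all 12 libraries to 1 scale moved set4Δ values by -0.0256 to -0.0121 and wild-type values by 0.00642 to 0.017 at the median on the log2 scale. In bulk RNA, a change in the make-up of the culture and a change of RNA per cell cannot be told apart.

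The responses of set4Δ and wild-type cells were close for most genes and differed for 81 of 6025. With limma and an adjusted p of no more than 0.05, the response was higher in set4Δ cells for 55 genes, 0.913% of those tested, and lower for 26 genes, 0.432% of those tested. The difference was at least 1 on the log2 scale in size for 22 of the genes called higher and 6 of those called lower. The most positive differences belonged to seripauperins, and the most negative to CWP2, which encodes a wall mannoprotein of aerobic cells. Across all genes, the difference had a median of -0.02, with quartiles of -0.14 and 0.11 and a median standard error of 0.14, and the unadjusted p was 0.05 or less for 717 genes. The 2 responses correlated across genes with an r of 0.975, where genes are not independent replicates. Other fits moved the counts by more than 1.5 times, to 108 higher and 62 lower with DESeq2 on whole reads, 293 and 251 with limma and sample weights, and 20 and 8 with a block of replicate number within each genotype.

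**Figure D1:**
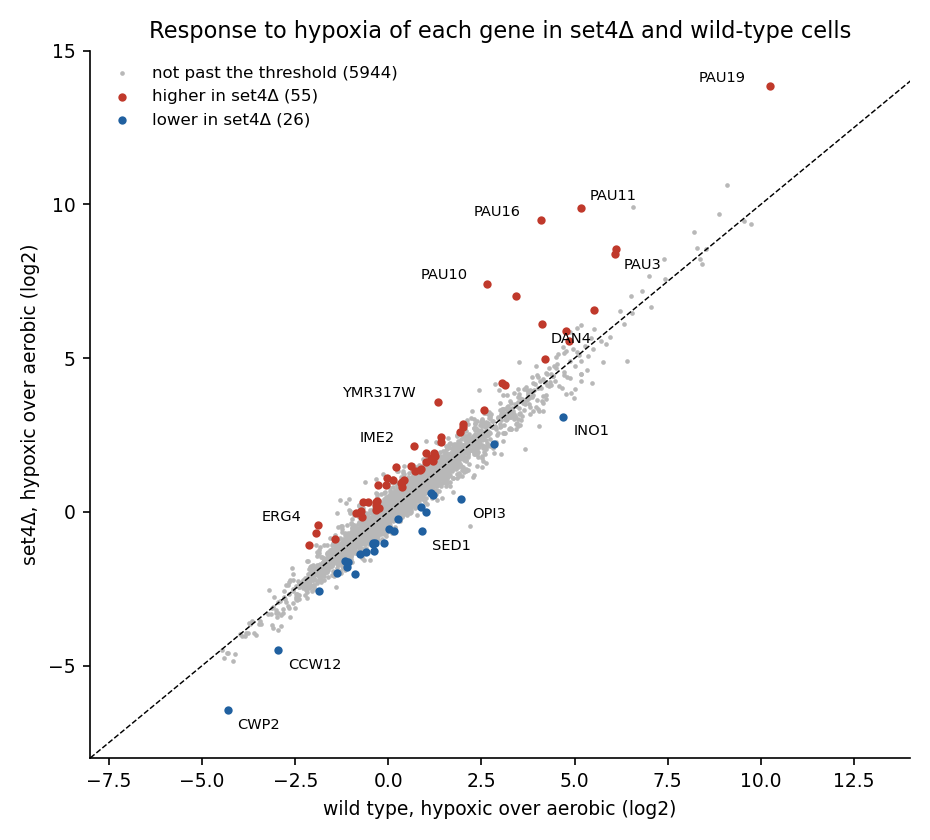
Each point is a gene, placed by its hypoxic over aerobic log2 change in set4Δ cells (vertical axis) and in wild-type cells (horizontal axis), with equal responses on the dashed line. The 55 genes called higher in set4Δ cells (red) lie above the line, with PAU16, PAU10 and PAU11 farthest from it, and the 26 called lower (blue) lie below it, with CWP2 farthest.

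Most of the genes called higher were induced in both strains and induced more in set4Δ cells. Of the 55, 38 had a positive response in both genotypes, 6 a negative response in both, and 11 a positive response in set4Δ cells against a negative one in wild-type cells. Of the 26 called lower, 15 had a negative response in both, 7 a positive response in both, and 4 a negative response in set4Δ cells against a positive one in wild-type cells. The number of calls depended on single libraries. Without hypoxic set4Δ replicate 1 there were 24 higher and 14 lower, without replicate 2 of that group 38 and 17, and without replicate 3 of it 77 and 42. Leaving out aerobic set4Δ replicate 1, 2 or 3 gave 27, 30 or 33 higher and 12, 12 or 14 lower. For the wild type, 31 higher and 17 lower were called without hypoxic replicate 1, and 22, 30 or 33 higher and 9, 12 or 10 lower without aerobic replicate 1, 2 or 3. A set of 20 genes higher and 9 lower was called in each of the 12 fits that left out a library.

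SET4 itself checks the labels. It had 21.2, 16.6 and 26 normalized counts in hypoxic and 0, 3.78 and 0 in aerobic set4Δ libraries, against 5291, 4898 and 8574 in hypoxic and 161, 217 and 199 in aerobic wild-type libraries. Every library fitted its label, and the gene was induced in wild-type cells by 4.98 on the log2 scale. Its difference of responses was -1.28 ± 0.69 (SE, limma adjusted p = 0.52) and rests on the pseudocount, since the aerobic set4Δ libraries were at or near 0, and it was -0.59 and -2.84 with pseudocounts of 0.5 and 5.

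The gene next to the deletion differed between the responses. IME2, a protein kinase of meiosis, lies at chrX:221390-223327 on the same strand as SET4 and ends 1727 bases before it. It had 1475, 1497 and 1193 normalized counts in hypoxic and 355, 265 and 331 in aerobic set4Δ libraries, against 520, 481 and 499 in hypoxic and 298, 313 and 317 in aerobic wild-type libraries. The hypoxic set4Δ libraries were the highest and overlapped with no other group. The difference of responses was 1.44 ± 0.16 (SE, limma adjusted p = 0.00082), and an effect of the replaced locus on its neighbour and one of the missing protein cannot be told apart. PAM16, a subunit of the mitochondrial import motor 589 bases after SET4, had a difference of -0.02 (adjusted p = 0.98), and YJL107C, on the other side of IME2, of -0.60 (adjusted p = 0.60, both limma).

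The seripauperins held the largest differences of all genes tested. Of 24 listed, 19 were measured in both tables, and 7 were called higher and none lower, against 0.913% and 0.432% of all genes. The 7 were PAU3, PAU10, PAU11, PAU12, PAU15, PAU16 and PAU19. The difference was positive for 16 and negative for 3, from -0.39 to 5.40, with a median of 1.00 against -0.02 over all genes. Summed over the family, the level was 370291 ± 111650 normalized counts in hypoxic and 801 ± 116 in aerobic set4Δ libraries, against 144472 ± 54783 in hypoxic and 522 ± 71.2 in aerobic wild-type libraries (SD, n = 3 each). The 3 hypoxic set4Δ sums, 324079, 289166 and 497627, all lay above the highest hypoxic wild-type sum of 207320, and replicate 3 had the highest hypoxic sum in both strains.

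PAU11, on the left end of chromosome VII (chrVII:6290-6652, minus strand), had 5774, 3947 and 5994 normalized counts in hypoxic and 9.07, 2.84 and 3.25 in aerobic set4Δ libraries, against 281, 162 and 327 in hypoxic and 6.52, 7.43 and 4.04 in aerobic wild-type libraries. The aerobic groups overlapped and the hypoxic groups were far apart, at 20.4-fold on a common scale. The difference of responses was 4.70 ± 0.53 (SE, limma adjusted p = 0.00082), and 4.74 and 4.53 with pseudocounts of 0.5 and 5. With edgeR, PAU11 passed narrowly (adjusted p = 0.046). It rests on few reads in air, 15 in all aerobic set4Δ libraries and 19 in all aerobic wild-type libraries.

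PAU10, near the right end of chromosome IV (chrIV:1523249-1523611, plus strand), had 5508, 4625 and 3809 normalized counts in hypoxic and 34.3, 15.1 and 32.5 in aerobic set4Δ libraries, against 41.5, 40.6 and 51.4 in hypoxic and 9.78, 3.71 and 6.46 in aerobic wild-type libraries. Its value in air was also higher in set4Δ cells, by 1.85 on the log2 scale, which did not pass (limma adjusted p = 0.24). The difference of responses for PAU10 was 4.78 ± 0.46 (SE, limma adjusted p = 0.00033). PAU3, with 10516, 10201 and 7436 normalized counts in hypoxic and 22.7 to 25.2 in aerobic set4Δ libraries, against 1118, 1084 and 1179 in hypoxic and 12.1 to 21.4 in aerobic wild-type libraries, had a difference of 2.46 ± 0.25 (SE, limma adjusted p = 0.00050). PAU12 had a difference of 3.58 ± 0.47 (limma adjusted p = 0.0027), with 2041 to 4660 normalized counts in hypoxic set4Δ libraries and 152 to 290 in hypoxic wild-type libraries. PAU10, PAU3 and PAU12 were also called by edgeR (adjusted p = 0.0063, 0.0032 and 0.038).

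PAU16 and PAU19 were at or near 0 in air. PAU16 had 1578, 1214 and 753 normalized counts in hypoxic set4Δ libraries, against 30.2, 26.7 and 33.6 in hypoxic wild-type libraries, and at most 2.17 in any aerobic library. Its difference was 5.40 (limma adjusted p = 0.0010), and 5.48 and 5.10 with pseudocounts of 0.5 and 5, and it was not called by edgeR (adjusted p = 0.36). PAU19 had 15154, 13834 and 30314 in hypoxic set4Δ libraries, against 4745, 2833 and 7087 in hypoxic wild-type libraries, and 1.01, 0 and 0 in aerobic set4Δ libraries, against 4.35, 4.64 and 0.808 in aerobic wild-type libraries. Its difference of 3.61 (limma adjusted p = 0.026) became 4.17 and 2.62 with pseudocounts of 0.5 and 5, was not called by edgeR (adjusted p = 0.40), and was lost without hypoxic set4Δ replicate 1, aerobic set4Δ replicate 2 or 3, hypoxic wild-type replicate 1 or 2, or aerobic wild-type replicate 1 or 2. Over the 12 fits that left out a library, the difference for PAU19 lay between 3.25 and 4.14. PAU15, with 4592, 3919 and 3695 in hypoxic set4Δ libraries, against 366, 619 and 821 in hypoxic wild-type libraries, had 9.74 to 14.2 in aerobic set4Δ libraries, against 5.57 to 10.9 in aerobic wild-type libraries. Its difference was 2.28 (limma adjusted p = 0.019), and 2.25 and 2.43 with pseudocounts of 0.5 and 5, and edgeR did not call it (adjusted p = 0.28). The call for PAU15 was lost without hypoxic set4Δ replicate 1, aerobic set4Δ replicate 1 or 3, or aerobic wild-type replicate 1, with a difference of 1.96 to 2.54 over the 12 fits.

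Other members had higher values in set4Δ cells in both conditions, not all of which passed a test, or had a difference of responses that did not pass. PAU24 reached 65585 to 69557 normalized counts in hypoxic set4Δ libraries, against 14599 to 19479 in hypoxic wild-type libraries. It was also higher in air, by 1.08 on the log2 scale (limma adjusted p = 0.027), and its difference of responses of 0.90 did not pass (limma adjusted p = 0.062). PAU13 was higher in set4Δ cells by 1.48 in hypoxia and 1.20 in air, of which only the hypoxic value passed (limma adjusted p = 0.015 and 0.99975). Its difference of responses was 0.28 (adjusted p = 0.87, limma). PAU17, chosen after its values were seen, was 0.33 and 0.47 higher in hypoxia and in air, and neither value passed (limma adjusted p = 0.47 and 0.99975). Its difference of responses was -0.15 (adjusted p = 0.92, limma). PAU4 and PAU20, chosen in the same way, had larger differences of 3.35 and 1.54 that did not pass (limma adjusted p = 0.080 and 0.45). PAU4 had 4006 to 4823 normalized counts in hypoxic set4Δ libraries, against 232 to 271 in hypoxic wild-type libraries, and at most 6.05 in any aerobic library. Near-identical copies share reads, and the treatment of reads that fit several places by the authors' counting is not stated. In the R64 reference, 63.1 to 86.3% of the 50-base words of PAU10, PAU11, PAU12, PAU15, PAU16 and PAU19 occur more than once, so their values are uncertain, against 39.0% for PAU3 and 0% for CWP2.

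DAN4 and YMR317W were also called higher, and their sequence is mostly unique. DAN4, an anaerobic wall mannoprotein (chrX:712255-715740, minus strand, 19.9% repeated words), had 11663, 12368 and 15602 normalized counts in hypoxic and 175, 178 and 220 in aerobic set4Δ libraries, against 2548, 2312 and 2191 in hypoxic and 120, 150 and 132 in aerobic wild-type libraries. The difference of responses was 1.97 ± 0.18 (SE, limma adjusted p = 0.00032). DAN4 was the only gene called of 6 in the DAN and TIR list, against 0.913% of all genes called higher, and the list median was 0.26. DAN1, which encodes a wall mannoprotein of anaerobic cells, had a difference of -0.26 ± 0.43 (adjusted p = 0.89, limma). YMR317W, an uncharacterized gene on the right arm of chromosome XIII (chrXIII:907364-910786, plus strand, 4.83% repeated words), had 17282, 17169 and 22175 normalized counts in hypoxic and 1478, 1520 and 1679 in aerobic set4Δ libraries, against 3716, 3957 and 3095 in hypoxic and 1436, 1543 and 1304 in aerobic wild-type libraries. The genotypes overlapped only in air, and the difference of 2.26 ± 0.17 had, with that of ERG4, the smallest adjusted p of all genes (4.7e-05, limma).

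**Figure D2:**
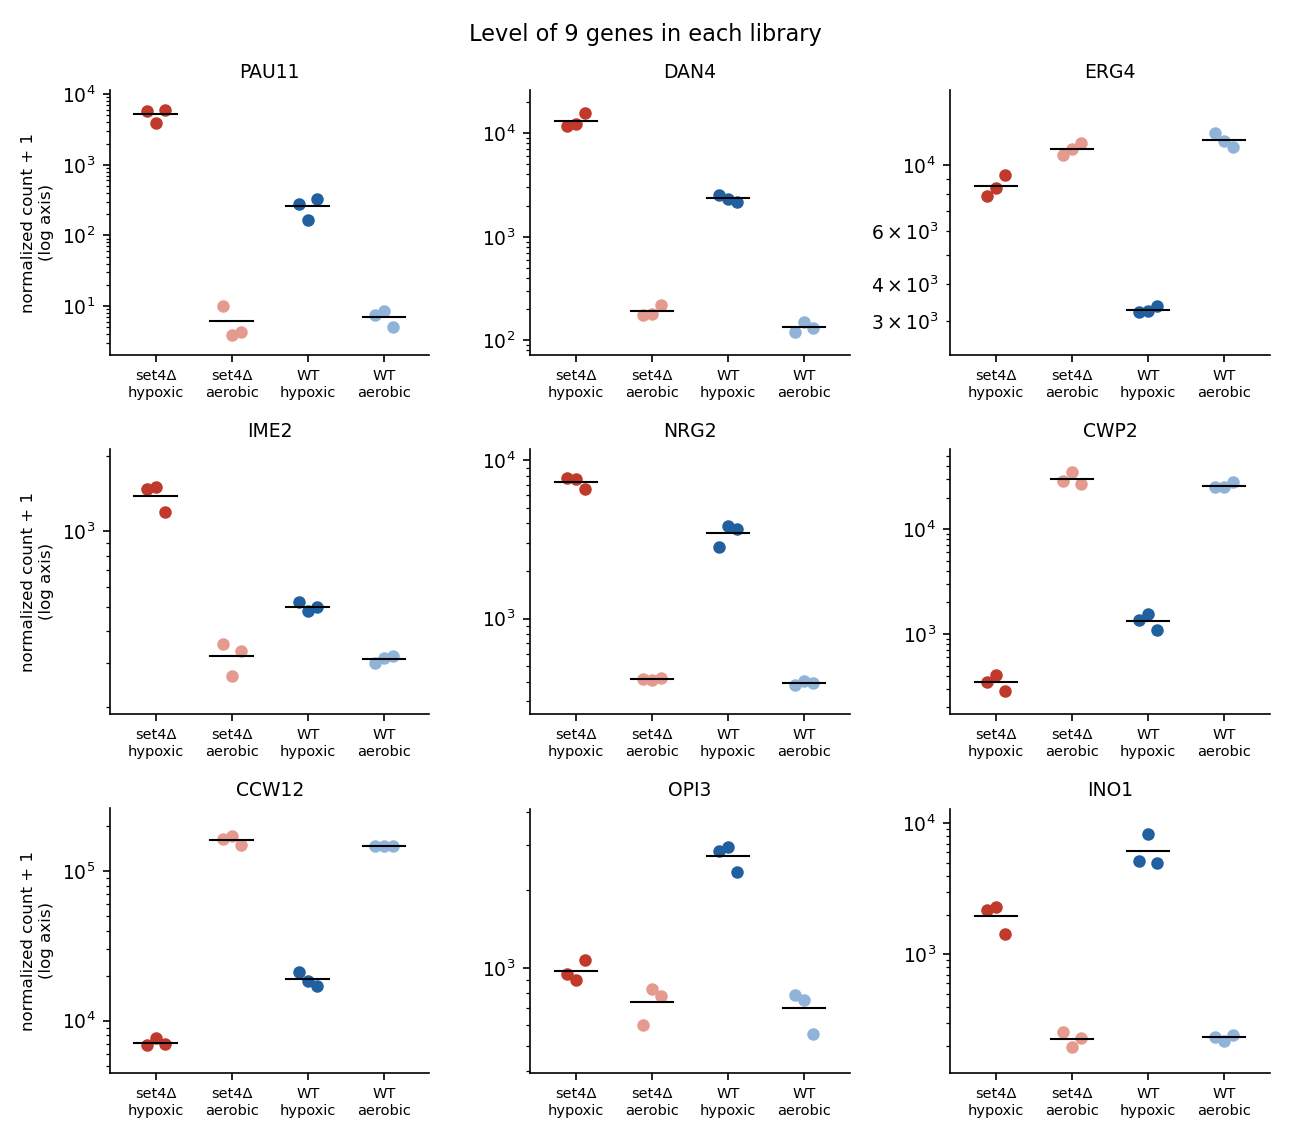
Normalized count plus 1 of 9 genes in every library, on log axes that differ between panels, with the 3 libraries of each group as points and their mean as a bar. PAU11, DAN4, ERG4, IME2 and NRG2 are higher in hypoxic set4Δ than in hypoxic wild-type libraries, while CWP2, CCW12, OPI3 and INO1 are lower, and the aerobic libraries of the 2 genotypes lie close together.

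Among cell wall genes outside the seripauperin, DAN and TIR families, 5 of the 7 called had a lower response in set4Δ cells. The list held 66 such genes, of which 5 were called lower and 2 higher, against 0.432% and 0.913% of all genes, and 51 of the 66 differences were negative, with a median of -0.20 against -0.02 over all genes. The genes called lower were CWP2, CCW12, SED1, TIP1 and CCW14, which encode GPI-anchored wall mannoproteins. Of these, CWP2 and CCW12 were lower in hypoxia than in air in both strains, while the wild-type responses of SED1, TIP1 and CCW14 were positive, at 0.90, 0.87 and 0.27. The genes called higher were YPS6, a yapsin protease, and SCW4, a wall protein with a glucanase-like sequence.

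CWP2 had 348, 409 and 285 normalized counts in hypoxic and 28968, 34738 and 27208 in aerobic set4Δ libraries, against 1365, 1546 and 1090 in hypoxic and 24930, 25064 and 27817 in aerobic wild-type libraries. In hypoxia it fell by 6.45 on the log2 scale in the deletion strain and fell by 4.29 in the wild type, and the hypoxic groups did not overlap. The difference of -2.16 ± 0.21 (SE, limma adjusted p = 0.00033) was the most negative of all genes called. CCW12, an abundant wall mannoprotein gene, had 6853, 7613 and 6979 in hypoxic and 149944 to 171415 in aerobic set4Δ libraries, against 21068, 18412 and 17181 in hypoxic and 146303 to 147906 in aerobic wild-type libraries. Its difference was -1.53 ± 0.15 (SE, limma adjusted p = 0.00033).

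SED1, a structural wall protein, moved in opposite directions. It had 7914, 7077 and 11274 normalized counts in hypoxic and 12933, 14542 and 12141 in aerobic set4Δ libraries, against 20583, 19096 and 26604 in hypoxic and 10888, 12251 and 12116 in aerobic wild-type libraries. The difference of -1.52 ± 0.23 (SE, limma adjusted p = 0.0079) thus joins a response of -0.62 in set4Δ cells with one of 0.90 in wild-type cells. TIP1, a cold-shock mannoprotein gene with 3865 to 4327 in hypoxic set4Δ libraries and 6241 to 7394 in hypoxic wild-type libraries, had a difference of -0.71 ± 0.10 (limma adjusted p = 0.0053). TOH1, a GPI-anchored wall protein gene outside that list, had one of -0.67 ± 0.09 (limma adjusted p = 0.0027). These 5 genes, CWP2, CCW12, SED1, TIP1 and TOH1, were called in all 12 fits that left out a library. NCW2 (-0.99), CCW14 (-0.48), YPS6 (1.26) and SCW4 (0.61) passed with adjusted p from 0.022 to 0.039 and were each lost without 6 to 9 of the libraries, with limma adjusted p of up to 0.11.

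In the sterol pathway, ERG4 and ECM22 were called. ERG4, the enzyme of the last step of ergosterol synthesis (chrVII:472855-474276, plus strand), had 7852, 8363 and 9222 normalized counts in hypoxic and 10792, 11270 and 11868 in aerobic set4Δ libraries, against 3224, 3245 and 3367 in hypoxic and 12733, 12032 and 11464 in aerobic wild-type libraries. It fell by 0.42 in set4Δ cells and by 1.88 in wild-type cells on the log2 scale, a difference of 1.46 ± 0.11 (SE, limma adjusted p = 4.7e-05). ECM22, the activator of sterol genes, had 2328, 2299 and 1844 in hypoxic and 1042, 1034 and 910 in aerobic set4Δ libraries, against 1020, 1046 and 818 in hypoxic and 940, 1050 and 963 in aerobic wild-type libraries. It was induced in set4Δ cells, by 1.11, and had a response of -0.04 in wild-type cells, with a difference of 1.15 ± 0.16 (SE, limma adjusted p = 0.0041).

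ERG4 was the only gene called of 24 in ergosterol synthesis, whose median was 0.15 with 17 positive and 7 negative differences, and ECM22 the only gene called of 12 sterol regulators and uptake genes, with a median of 0.13. Among all genes, 0.913% were called higher. ERG3, the C-5 sterol desaturase, had a difference of 0.39 ± 0.11 (limma adjusted p = 0.12), and ERG11, the lanosterol demethylase, one of 0.38 ± 0.14 (limma adjusted p = 0.29). Their hypoxic levels were 23172 to 23812 and 41236 to 44350 normalized counts in set4Δ libraries, against 17838 to 18752 and 29984 to 37429 in wild-type libraries. On a scale common to all libraries, hypoxic set4Δ cells were 0.34 higher for ERG3 on the log2 scale (limma adjusted p = 0.021). For ERG11 the value of 0.31 did not pass (limma adjusted p = 0.11).

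Of 17 genes of phospholipid synthesis, 4 were called lower, against 0.432% of all genes, and none higher. These were OPI3, INO1, CHO2 and ITR1, of which only OPI3 was called in all 12 fits that left out a library. The difference was negative for 15 of the 17, with a median of -0.41 against -0.02 over all genes. OPI3, which methylates phosphatidylethanolamine derivatives to phosphatidylcholine, had 947, 899 and 1070 normalized counts in hypoxic and 601, 827 and 775 in aerobic set4Δ libraries, against 2829, 2931 and 2342 in hypoxic and 783, 752 and 554 in aerobic wild-type libraries. The difference was -1.55 ± 0.21 (SE, limma adjusted p = 0.0040), and it was called without any single library. MOG1, a Ran-binding protein gene that lies head to head with OPI3 on chromosome X, was called lower as well, at -0.76 ± 0.11 (limma adjusted p = 0.0060), also in each of the 12 fits.

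INO1, the enzyme that makes inositol phosphate from glucose 6-phosphate, had 2196, 2286 and 1434 normalized counts in hypoxic and 254, 195 and 228 in aerobic set4Δ libraries, against 5193, 8290 and 5008 in hypoxic and 235, 217 and 242 in aerobic wild-type libraries. The hypoxic groups did not overlap and the aerobic ones did, and the difference was -1.59 ± 0.29 (SE, limma adjusted p = 0.021). This call was lost without aerobic set4Δ replicate 1 or 3 or any of the aerobic wild-type replicates, with an adjusted p of up to 0.064. Over all 12 fits that left out a library, the difference for INO1 lay between -1.72 and -1.36. CHO2, the first methyltransferase on the way to phosphatidylcholine, had a difference of -0.61 ± 0.12, and ITR1, the main inositol transporter, one of -0.65 ± 0.13 (limma adjusted p = 0.026 and 0.037), and these calls held in 4 and 2 of the 12 fits, with adjusted p of up to 0.085 and 0.11. Chosen after their values were seen, PDR17, a phosphatidylinositol transfer protein gene, and PLB1, a phospholipase B gene, were called lower at -0.60 and -0.54. The call for PDR17 was lost without aerobic wild-type replicate 1 (limma adjusted p = 0.053) and that for PLB1 held in 4 of the 12 fits. RSB1, involved in the export of sphingoid bases and chosen in the same way, was called higher at 0.90 ± 0.10 (limma adjusted p = 0.00082) with 3462 to 3556 normalized counts in hypoxic set4Δ libraries, against 1931 to 2135 in hypoxic wild-type libraries.

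Among regulators and stress genes, HUG1, NRG2 and YAP3 were induced more in set4Δ cells. HUG1, an inhibitor of ribonucleotide reductase that is induced by DNA damage, had 16802, 17489 and 13528 normalized counts in hypoxic and 155, 176 and 167 in aerobic set4Δ libraries, against 6435, 7686 and 6862 in hypoxic and 144, 156 and 154 in aerobic wild-type libraries. Its difference was 1.05 ± 0.14 (SE, limma adjusted p = 0.0034), and no other of the 11 genes in the ribonucleotide reductase list was called. Among all genes, 0.913% were called higher. NRG2, a zinc-finger repressor, had 7744, 7624 and 6562 in hypoxic and 411 to 420 in aerobic set4Δ libraries, against 2851, 3864 and 3657 in hypoxic and 378 to 401 in aerobic wild-type libraries, a difference of 1.00 ± 0.15 (limma adjusted p = 0.0053). YAP3, a bZIP transcription factor gene, was induced only in set4Δ cells by the test within each strain, with a response of 1.04 against 0.13, and the difference itself was 0.91 ± 0.10 (limma adjusted p = 0.00064). NRG2, YAP3 and the genes SPO22, MAC1, HPT1 and ADE13 given next were chosen after their values were seen.

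The 7 PMT genes measured are a family singled out after its values were seen. Of these, 2 were called higher and none lower, against 0.913% and 0.432% of all genes. Their median difference was 0.14. PMT3 and PMT5, protein O-mannosyltransferase genes, had differences of 1.14 ± 0.20 and 0.94 ± 0.19, and EUG1, a protein disulfide isomerase of the endoplasmic reticulum, one of 0.87 ± 0.15 (limma adjusted p = 0.017, 0.032 and 0.018). PMT3 had 3448, 3569 and 4572 normalized counts in hypoxic and 2062 to 2174 in aerobic set4Δ libraries, against 1589, 1619 and 2332 in hypoxic and 2117 to 2300 in aerobic wild-type libraries, and its call was lost without aerobic replicate 1 of either strain, with an adjusted p of up to 0.063. SIT1, a siderophore transporter, had a difference of 0.85 and was the only gene called of 30 in the iron regulon, and MAC1, a copper-sensing activator, had one of 0.44. GPX2, a glutathione peroxidase gene, was called higher at 1.27 and was the only one called of 35 in oxidative stress defence. Of the 12 fits that left out a library, SIT1 was called in 8, EUG1 in 7, PMT5 in 4, and MAC1 and GPX2 in 2 each, with limma adjusted p of up to 0.11.

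The 11 ADE genes measured were also singled out after their values were seen. Of these, 3 were called lower and none higher, against 0.432% and 0.913% of all genes. Their differences ran from -0.69 to 0.12, with a median of -0.39. ADE2, ADE8 and ADE3 were not called, at -0.12, -0.08 and 0.12. ADE1, an enzyme of purine synthesis, had 1692, 1620 and 1470 normalized counts in hypoxic and 3823 to 4015 in aerobic set4Δ libraries, against 2231, 2363 and 2308 in hypoxic and 3439 to 3609 in aerobic wild-type libraries. The difference was -0.69 ± 0.09 (SE, limma adjusted p = 0.0022). ADE17 and ADE13, of the same pathway, and HPT1, which salvages purine bases, were also called lower, at -0.66, -0.46 and -0.57, and of these HPT1 was called in all 12 fits and ADE17 and ADE13 in 3 each. GLN1, glutamine synthetase, and ZEO1, a membrane protein gene linked to wall integrity, were called lower at -0.89 and -0.70. YDL241W and YCL011C-A, for which the reference gives no role, were called lower at -1.14 and -0.90. Of the 12 fits, GLN1 and ZEO1 were called in 6 each, YCL011C-A in 4 and YDL241W in 2, with limma adjusted p of up to 0.12. The difference for SPO22, a meiotic gene, was 0.70 ± 0.11 (limma adjusted p = 0.0067).

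Of 49 retrotransposon genes, 39 had a negative difference and the median was -0.24, but YJL114W, YJL113W and YHL009W-B, all of the Ty4 family, were called higher at 1.11, 0.76 and 0.71. Among all genes, 0.913% were called higher. YJL113W, a Gag-Pol gene, had 10544, 10322 and 10938 normalized counts in hypoxic and 302 to 368 in aerobic set4Δ libraries, against 5547, 5806 and 7083 in hypoxic and 308 to 363 in aerobic wild-type libraries. Between 73.4 and 98.6% of the 50-base words of the 3 genes are repeated in R64, so which copy the reads came from is uncertain, and each call was lost without 8 or 9 of the 12 libraries, with limma adjusted p of up to 0.096.

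The differences of responses came from hypoxic cells more than from aerobic cells. On a scale common to all 12 libraries, each of the 55 genes called higher and 26 called lower differed more between set4Δ and wild-type cells in hypoxia than in air. For genes called higher, the median of set4Δ over wild type was 0.80 in hypoxia and -0.02 in air on the log2 scale, and for genes called lower -0.74 and 0.05. Exceptions to a difference near 0 in air were few. The size in air was at least 0.5 for 4 genes called higher and for none called lower, where it was at most 0.19, and the 4 were PAU10 (1.85), PAU19 (-1.60), PAU3 (0.54) and PAU15 (0.51). These values share all their libraries with the difference of responses and are a description of it.

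**Figure D3:**
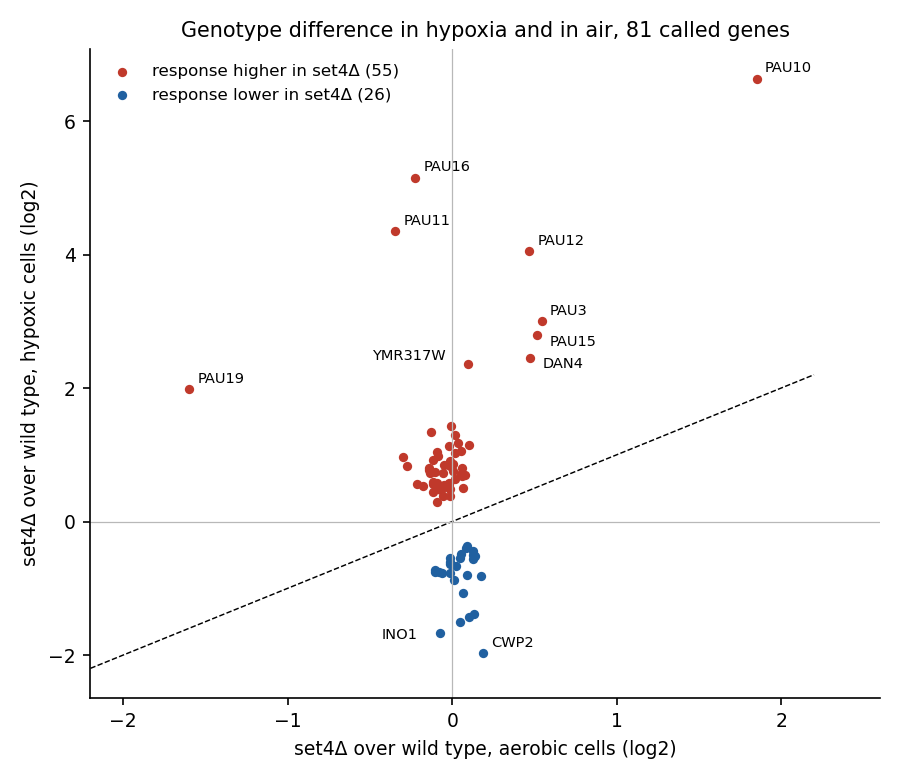
The log2 level of set4Δ over wild-type cells in hypoxia (vertical axis) and in air (horizontal axis) for the 81 called genes, on a scale common to the 12 libraries, with equal values on the dashed line. Red points (55 genes, median 0.80 in hypoxia) and blue points (26 genes, median -0.74) spread along the vertical axis and stay near 0 in air, except PAU10 and PAU19.

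Sequence upstream of the called genes was searched for known elements, since members that move together may share them. The window was the 300 bases before the annotated start codon in R64, available for 5810 tested genes, and both strands were read. TCGTTTA, the core of the element through which Upc2 acts on anaerobic wall genes, was found upstream of 24 of 55 genes called higher (43.6%), none of 25 called lower with a window, and 323 of all 5810 (5.56%). TCGTATA, the core bound by Upc2 and Ecm22 at sterol genes, was found upstream of 11 genes called higher (20%), 2 called lower (8%) and 269 of all (4.63%). The matches stood outside the seripauperin, DAN and TIR genes also, where 23 of 47 genes called higher had either element (48.9%), against 550 of 5785 (9.51%).

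The matches are shown for a part of the genes described above as stretches of 30 bases on the strand of the gene, with every match of either element in capitals, where TAAACGA and TATACGA are the elements on the opposite strand. The first lines are seripauperin copies, of which PAU11, PAU3 and PAU15 have the same 30 bases, and the next are genes of other families. PAU10 and PAU12, also seripauperins, stand near the end with TCGTATA.
PAU11 at chrVII:6768-6797: ctgttaacgaaTCGTTTAagtagtgatgac
PAU16 at chrXI:2297-2326: ttgttaacgaaTCGTTTAagtagtgatgac
PAU3 at chrIII:307655-307684: ctgttaacgaaTCGTTTAagtagtgatgac
PAU15 at chrIX:433784-433813: ctgttaacgaaTCGTTTAagtagtgatgac
PAU19 at chrXIII:922399-922428: agatgcatgccTCGTTTAaaaacaagaaca
PAU19 at chrXIII:922496-922525: atgttaacgaaTCGTTTAagtggtgatgac
DAN4 at chrX:715858-715887: ctccaatatatTCGTTTAtacaacagctgt
DAN4 at chrX:715944-715973: atgtcaaaaatTATACGAgatctgtttaag
ERG4 at chrVII:472617-472646: ctcgtttcttcTCGTTTAataacTAAACGA
ECM22 at chrXII:602477-602506: aggtttatattTCGTTTAtccatagatctc
NRG2 at chrII:370833-370862: ccctctttaaaTCGTTTAtcttttatatat
PMT3 at chrXV:915813-915842: cctgtaagaacTCGTTTAagaacaaagctc
PMT5 at chrIV:289730-289759: tttccaagaacTCGTTTAcgtgccgcgaaa
EUG1 at chrIV:1478427-1478456: ttcaaaacacgTAAACGAtagttggcaatg
SCW4 at chrVII:1049986-1050015: tacatctacaaTCGTTTAtatactagcaag
SIT1 at chrV:27425-27454: cccgaagttcaTCGTTTAcaatgtgccgta
PAU10 at chrIV:1522977-1523006: acatatcttcaTATACGAagtttgtgacga
PAU12 at chrVII:1080033-1080062: aagcgtgcgccTCGTATAcgggacctatga
CWP2 at chrXI:259106-259135: agatacaataaTCGTATAtaaatcaggctt
YDL241W at chrIV:20448-20477: gcgtatgattgTCGTATAtaacagggcact

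TCGTTTA lay 127 bases before the start codon of PAU11, PAU15, PAU16 and PAU19 and 128 before that of PAU3, 129 before DAN4 and 145 before NRG2, and PAU19 had a further match at 224 bases. ERG4 carried TCGTTTA on each strand, 220 and 208 bases before its start codon, and the stretch shown holds both matches. CWP2, with the most negative difference, carried TCGTATA 129 bases before its start codon, and YDL241W, also called lower, 169 bases before its own, so the letters were found on both sides.

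TCGTTTA was shared by many genes that were not called. Of the 323 genes with TCGTTTA, 24 were called higher (7.43%) and none lower, with a median difference of 0.10, against 31 of 5487 without it called higher (0.565%), 25 lower and a median of -0.03. Without the seripauperin, DAN and TIR genes, 18 of 309 were called higher (5.83%), with a median of 0.09, against 29 of 5476 (0.530%) and -0.03. Of the 19 seripauperins, 11 had TCGTTTA (57.9%), and 5 of these were called. Whether any factor was bound was not measured.

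**Figure D4:**
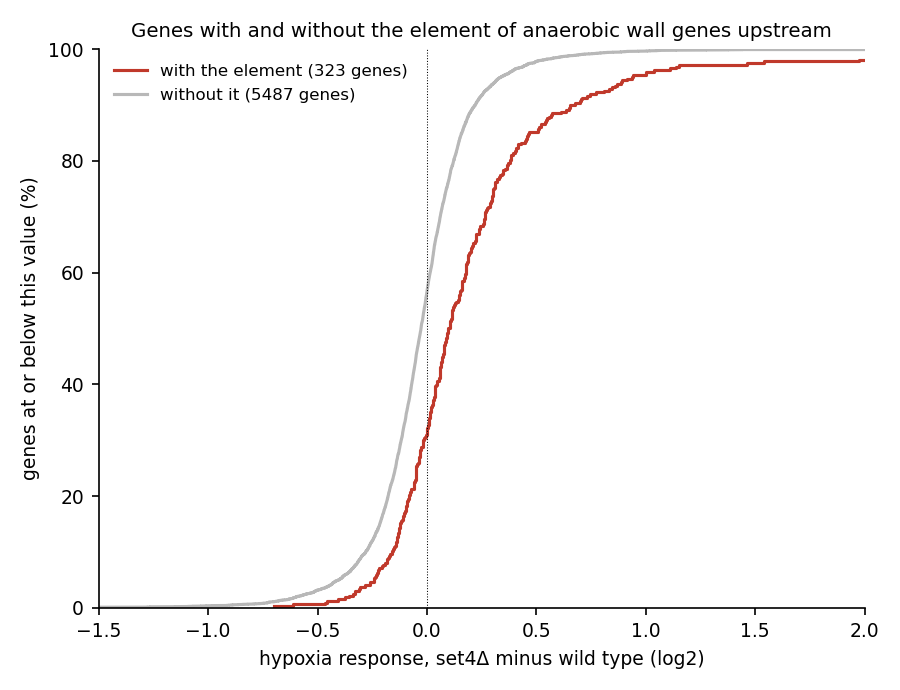
Share of genes (vertical axis, percent) at or below each difference of responses (horizontal axis, set4Δ minus wild type, log2), for the 323 genes with TCGTTTA, the element of anaerobic wall genes, in the 300 bases upstream and the 5487 genes without it. The curve of genes with the element lies to the right, with a median of 0.10 against -0.03. The curves are not drawn beyond 2 or beyond the left end of the axis.

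CATGTG, the core of the element bound by Ino2 and Ino4, was found upstream of 6 of 25 genes called lower (24.0%), 6 of 55 called higher (10.9%) and 410 of 5810 in all (7.06%). In the phospholipid synthesis list 13 of 17 genes had it (76.5%), including all 4 called lower. These are shown as 30 bases on the strand of the gene, with CATGTG, or CACATG for the opposite strand, in capitals.
INO1 at chrX:136159-136188: ggctaaatgcggCATGTGaaaagtattgtc
INO1 at chrX:136094-136123: acttatttaattCACATGgagcagagaaag
OPI3 at chrX:573130-573159: tcaatgagagtgCATGTGgaaagttgcacc
OPI3 at chrX:573066-573095: tatgcaaacccaCACATGcatcgttggttt
CHO2 at chrVII:802161-802190: ttattcccttctCATGTGaagagttcacac
ITR1 at chrIV:1445671-1445700: ccttccccaccgCATGTGaaaaaagctcga
ITR1 at chrIV:1445732-1445761: ttctgttctcttCACATGcgttaggtatag
The CACATG of OPI3 also lies in the upstream window of MOG1, which was called lower too, so this site counts for both genes. The other OPI3 stretch lies inside the coding sequence of MOG1 (chrX:573095-573751). Over all genes with CATGTG, the median difference was -0.02, against -0.02 over those without it. The other elements searched were near their overall shares among genes called higher, with ATTGTT (Rox1) at 25.5% against 34.3% of all windows, CCAAT (Hap complex) at 41.8% against 42.2%, and AGGGG (Msn2 and Msn4) at 20% against 22.5%. Among genes called lower these were 40%, 44% and 20%.

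The genes called higher near chromosome ends included the 7 seripauperins. Of 485 genes within 40 kb of an end, 16 were called higher and 2 lower, with a median difference of 0.05, against 39 higher and 23 lower of 5368 genes elsewhere, with a median of -0.03. Leaving the seripauperins out, 9 of 471 genes near ends were called higher. The standard error was larger near ends, 0.18 at the median against 0.13 elsewhere. In the COS family of subtelomeric membrane proteins, 10 of 11 differences were positive with a median of 0.24 and none was called, and COS12 had 44.7 to 98.8 normalized counts in hypoxic and 19.2 to 37.9 in aerobic set4Δ libraries, against 27.9 to 68.3 in hypoxic and 35.3 to 87.3 in aerobic wild-type libraries, a difference of 1.41 ± 0.60 (SE, limma adjusted p = 0.38). YPS5, an aspartic protease-like gene near the same end as PAU11, had a difference of 0.41 (limma adjusted p = 0.75).

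Over all genes, 1.34% were called in either direction. No gene was called in the lists of oxygen regulators (12 genes, median -0.04), glycolysis and fermentation (31, -0.35), the TCA and glyoxylate cycles (30, -0.07), the respiratory chain and ATP synthase (37, -0.27), heat shock and chaperones (30, -0.17), ribosome biogenesis (85, -0.19), cytoplasmic ribosomal proteins (139, 0.01), mitochondrial ribosomal proteins (71, -0.01), histones (11, -0.17) or silencing factors (18, 0.01). Several of these medians were below that over all genes, and the differences were negative for 81 of 85 ribosome biogenesis genes, 33 of 37 respiratory genes and 26 of 31 glycolytic and fermentative genes. Cytoplasmic ribosomal protein genes, which at the median had responses of -1.57 in set4Δ and -1.59 in wild-type cells, stood at 0.01. In the list of oxygen-regulated targets 3 of 15 were called, EUG1 and PMT5 higher and INO1 lower. Of 27 SET-domain genes and deacetylases 1 was called lower, as was 1 of 18 in the zinc regulon. Of 29 mating and pheromone genes 1 was called higher, and of 37 amino acid permease and nitrogen genes 1 was called in each direction.

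**Figure D5:**
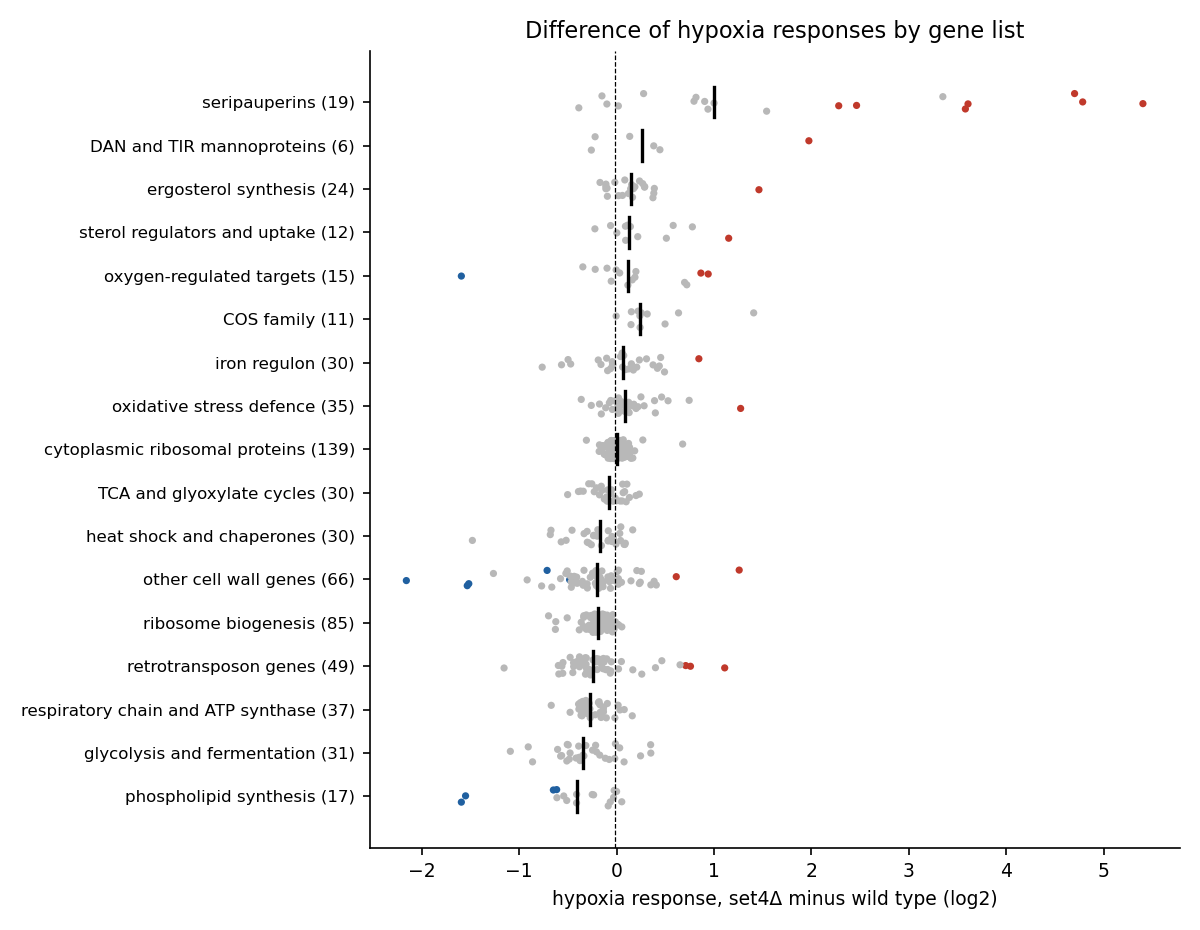
Difference of hypoxia responses (horizontal axis, set4Δ minus wild type, log2) of every measured gene in 17 lists, with the number of genes in brackets, genes called higher in red, genes called lower in blue, the median of a list as a bar and the median of all genes as the dashed line. The seripauperins reach 5.40 with a median of 1.00, and the phospholipid synthesis genes have a median of -0.41.

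Of the other genes measured singly in the study, none was called. CTT1, the cytosolic catalase gene, had 1390 to 2242 normalized counts in hypoxic set4Δ libraries and 1431 to 2912 in hypoxic wild-type libraries, with a difference of -0.36 ± 0.38 (limma adjusted p = 0.80). PNC1, nicotinamidase, had a difference of 0.12 ± 0.25 (adjusted p = 0.91, limma). TFC1, a subunit of the polymerase III factor TFIIIC, had one of 0.07 ± 0.09 (limma adjusted p = 0.84), and SCR1, the RNA of the signal recognition particle, one of -0.07 (limma adjusted p = 0.99).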

How the data were processed

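RNA of 12 yeast samples was sequenced, 3 for each genotype and oxygen condition. Per the labels, the authors' pipeline was Trimmomatic 0.36 for trimming, STAR 2.5.2b for alignment and featureCounts (Subread 1.5.2) for counts per gene. The signal values were deposited by the authors as counts per gene divided by size factors fitted to the 6 libraries of a table. Not given in the sources used here are the genome build, the strand setting and the treatment of multi-mapping reads. Columns holding the authors' own fold changes, p-values and false discovery rates were not used, nor were the tables that compare the genotypes within air or within hypoxia. In the air comparison, the aerobic wild-type column numbered 3 there matched no wild-type column used here gene by gene. Whether it is the same library is therefore not known. In every group, the library numbered 3 here is numbered 1 in those tables, so replicate numbers are those of the response tables. All values of the 12 columns returned to whole reads within 0.05.

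For the difference of responses, limma 3.58.1 (R 4.3.3) was fitted to log2(value + 1), with a variance trend, in a model of 4 group means and with Benjamini-Hochberg adjustment over 6025 genes. A single response on this scale understates the change of low genes, but a difference of 2 responses can move either way with the pseudocount. From a pseudocount of 0.5 to one of 5, the difference rose from 4.72 to 5.10 for PAU10 and fell from 4.17 to 2.62 for PAU19. Differences of genotype in 1 condition used size factors over all 12 libraries. Alternatives were pseudocounts of 0.5 and 5, a minimum of 50, other scalings, robust and weighted fits, edgeR 4.0.16 and DESeq2 1.42.0 on whole reads, blocks of replicate number and leaving out each library or repeated genes. On simulated counts of 6025 genes with this design, the test found 37.8% of 1.5-fold, 89.2% of 2-fold and 100% of 3-fold differences, with 6.37% of calls false. The changed genes were drawn from those with a mean of at least 50, so these rates do not cover lower genes. The simulated libraries were independent of each other.

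The genes, lists and upstream elements were chosen with earlier results of these data known. Named were SET4 and its neighbours, the 15 largest differences in each direction among called genes, up to 4 genes of each list and genes the study measured singly. PAU18 and PAU21 are in the set4Δ table only, and PAU22 and YGL262W were not analysed here. Of the tested names, 5855 matched R64 (RefSeq), and 2 that a spreadsheet had turned into dates were not named. No label says that replicates came from separate cultures, so p-values measure only the spread between these samples, which may be technical.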

Additional observations from a re-analysis of the deposited data

Results flagged for a closer look

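Each named gene that passed the limma test of the difference of responses is given here with that difference, as log2 of set4Δ minus wild type. Among the seripauperins it was 5.40 for PAU16, 4.78 for PAU10, 4.70 for PAU11, 3.61 for PAU19, 3.58 for PAU12, 2.46 for PAU3 and 2.28 for PAU15. Among other genes of the wall it was 1.97 for DAN4, 1.26 for YPS6 and 0.61 for SCW4, and -2.16 for CWP2, -1.53 for CCW12, -1.52 for SED1, -0.99 for NCW2, -0.71 for TIP1, -0.67 for TOH1 and -0.48 for CCW14. For lipid genes it was 1.46 for ERG4, 1.15 for ECM22 and 0.90 for RSB1, and -1.59 for INO1, -1.55 for OPI3, -0.65 for ITR1, -0.61 for CHO2, -0.60 for PDR17 and -0.54 for PLB1.

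Beside the deleted locus it was 1.44 for IME2. Regulators and stress genes had 1.27 for GPX2, 1.05 for HUG1, 1.00 for NRG2, 0.91 for YAP3, 0.85 for SIT1 and 0.44 for MAC1. Genes of the secretory path had 1.14 for PMT3, 0.94 for PMT5 and 0.87 for EUG1. The Ty4 genes had 1.11 for YJL114W, 0.76 for YJL113W and 0.71 for YHL009W-B. Purine and nitrogen genes had -0.69 for ADE1, -0.66 for ADE17, -0.57 for HPT1, -0.46 for ADE13 and -0.89 for GLN1. The others were 2.26 for YMR317W, 0.70 for SPO22, -0.76 for MOG1, -0.70 for ZEO1, -0.90 for YCL011C-A and -1.14 for YDL241W.

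A pair of seripauperins had values in the set4Δ table and none to set beside them, so no difference was formed. PAU18 had 175, 145 and 134 normalized counts in hypoxic set4Δ libraries (mean 151), against 0, 0 and 2.16 in aerobic ones. PAU21 had 23.1, 9.36 and 32.0 (mean 21.5), against 0 in each aerobic library.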

How the results depend on the processing

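Against 55 genes called higher and 26 lower, limma with sample weights called 293 and 251, DESeq2 on whole reads 108 and 62, and a block of replicate number within each genotype 20 and 8. A replicate block across the genotypes gave 52 and 28. Same-numbered libraries of the 2 genotypes correlated in their deviations at 0.037, 0.62 and 0.70 in hypoxia and at -0.12, 0.080 and -0.011 in air, so not every pair passed 0.1 and the numbers were not taken as pairs. No fit used a block shared by the genotypes in hypoxia alone, so the dependence seen there was not modelled by itself. Leaving out each library gave 22 to 77 higher and 9 to 42 lower, in fits with fewer samples. edgeR's quasi-likelihood test on whole reads called 53 and 25, of which 51 and 25 were among the 55 and 26, scaling to equal totals called 45 and 26, and genes of mostly unique sequence alone 45 and 26. A minimum of 0 in place of 10 tested the same genes. Of the 50 named called genes, none reversed in 28 settings, 21 passed in all of them and 24 in all 12 that left out a library. Genes that were not called changed sign in places. PAM16 was at 0.0081 after quantile normalization, 0.040 with sample weights and -0.078 to 0.067 without single libraries. PNC1 was at -0.063 with sample weights and -0.10 to 0.26 without single libraries. Without single libraries PAU13 ranged from -0.022 to 0.54, DAN1 from -0.58 to 0.030 and SCR1 from -0.15 to 0.041. The causes were not tested. For genes with few reads in air, depth limits the fitted difference.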
